A study of Mus musculus with 8 samples.

Results

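Retinoic acid is a hormone-like signal that cells make from vitamin A, and 9 mouse genes of its carriage, synthesis, binding and sensing are described here. They were chosen by name (Rbp4, Stra6, Aldh1a1, Aldh1a2, Aldh1a3, Crabp1, Crabp2, Rarb and Rarg) as every non-control probe whose gene name in the scanner files was 1 of these. That gave 11 probes of 55681 on the array, for 9 of 34787 genes, with 3 probes for Rarb and 1 for each other gene. RNA was measured on 8 one-colour arrays, 2 in each of 4 groups. The colony cells were bone marrow cells plated for 7 days on an endothelial monolayer in HSC medium, and the origin of that monolayer, or its removal before RNA was extracted, is not given. The other 3 groups were bone marrow-derived macrophages, plated for 7 days with M-CSF, the growth factor that turns marrow precursors into macrophages. Of these, 1 group then received interleukin-4 (IL-4) for 24 hours, 1 received lipopolysaccharide (LPS), a bacterial cell wall component, for 24 hours, and 1 had control medium. Marrow in all 4 groups came from B6 mice with the transgene Tg(CAG-DsRed*MST), a red fluorescent protein under the widely active CAG promoter. Sex and age are not given in the sources used here, nor is it said that replicate samples were from different animals, so p-values measure only the spread between these samples, which may be technical. Colony cells and macrophages were grown on other surfaces, in other media and with or without M-CSF, and these cannot be told apart. In bulk RNA, fewer cells of a type and less RNA per cell cannot be told apart either.

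Retinol travels in blood bound to the protein RBP4 and enters some cells through the membrane receptor STRA6. Dehydrogenases turn retinol into retinaldehyde, and the enzymes ALDH1A1, ALDH1A2 and ALDH1A3 turn retinaldehyde into retinoic acid in the last, irreversible step. CRABP1 and CRABP2 bind retinoic acid in the cytoplasm, and CRABP2 hands it to the retinoic acid receptors in the nucleus, among them RARB and RARG, which act on DNA together with RXR proteins. Macrophages and dendritic cells are among the immune cells known to make retinoic acid.

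Signals below come from 60-base probes. The opening 30 bases of the probes on which the results turn are shown to fix which transcript was measured, with no capitals since no part of them is singled out; all positions are mm9, per the scanner files.
Rbp4, chr19:38191120-38191179, minus strand: tccctgaaagatgtttgaggcttgggattc
Aldh1a1, chr19:20717764-20717823, plus strand: gactagttgtgacttaagctctgtccctca
Aldh1a2, chr9:71143931-71143990, plus strand: aaccagctagctcccttcaacccacagtat
Rarb, probe A_55_P1962154, chr14:17263367-17263426, minus strand: gctttctatgttcatatactgtttaccttt
Rarb, probe A_55_P2084807, chr14:17264648-17264707, minus strand: aattctgaaggacatgaacccttgacccca
Rarb, probe A_55_P2099585, chr14:17651424-17651483, minus strand: tattgagcctgtttgcacacactcaccacc
The other members were measured at chr9:58001701-58001760 (Stra6), chr7:73535785-73535844 (Aldh1a3), chr9:54616192-54616251 (Crabp1), chr3:87757207-87757266 (Crabp2) and chr15:102065371-102065430 (Rarg). Which exon or untranslated region each probe lies in was not analysed here.

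Colony cells were higher than control macrophages in Rbp4, Stra6, Aldh1a1, Aldh1a3, Crabp2, Rarb and Rarg, with Aldh1a1, an enzyme of retinoic acid synthesis, at 745.5 times its control level. The Aldh1a3 call was lost when a spot marked as an outlier was kept, and in the authors' deposited value table. IL-4 macrophages were higher than control macrophages in Rbp4, by at least 45.46-fold (a bound of 2.67 log2 with another background correction), in Aldh1a2, another of the synthesis enzymes, by 12.87-fold, and slightly in Rarg. LPS macrophages were lower than control macrophages in Rarg and higher in Aldh1a2, with small increases of Aldh1a1 and Crabp2. Under LPS, the Crabp2 call was lost in 15 of 19 alternative settings, and the calls of Aldh1a1 and Aldh1a2 were lost with another background correction. Under IL-4, the Rarg call was lost in 6 of 19. Crabp1 was not well above background on any array.

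Levels are given as scaled signal in intensity units, that is, each array's spot signal divided by that array's 75th percentile and multiplied by 637, the geometric mean of the 8 percentiles. Probes differ in how well they bind, so a signal can be compared between arrays for 1 probe and not between genes. A fold change is on the log2 scale with its standard error (SE), from 1 limma model over all 8 arrays, and adjusted p is Benjamini-Hochberg over the 26504 genes tested. A gene was called at an adjusted p under 0.05. With 2 arrays against 2, an exact permutation test cannot give a two-sided p below 0.333, so the calls rest on the spread that limma pools over the 4 groups and over genes. Where a probe was not well above background on either array of a group, only a bound is given, written as "at least N-fold", against the higher of its own signal and the lowest signal well above background on each of those arrays. A filter kept genes whose probe was well above background on the 2 arrays of some group, and 8 of the 9 members passed it. Stra6, Aldh1a3 and Rarb passed it only through colony cells and Rbp4 only through IL-4 macrophages and colony cells, by the probe that represents each gene; another Rarb probe was also well above background on both IL-4 and both LPS arrays.

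In colony cells against control macrophages, 7 of the 8 members tested were higher, 0 were lower and Aldh1a2 was not called, while 71.4% of all genes were called (24.7% higher and 46.7% lower). Stra6, Aldh1a3 and Rarb passed the filter through colony cells alone, and Rbp4 through colony cells and IL-4 macrophages alone. The filter therefore favoured higher calls of these genes in those groups. For that reason the member counts here cannot be read as an excess over all genes. In IL-4 against control macrophages, 3 of 8 members were higher and 0 were lower, while 19% of all genes were called (9.87% higher and 9.18% lower). In LPS against control macrophages, 3 of 8 were higher and 1 was lower, while 54.7% of all genes were called (28.9% higher and 25.8% lower), so the number called is close to that background. The split under LPS depended on the processing: members called were 1 higher and 1 lower with arrays centred on their median or in the authors' deposited value table, and 0 higher and 3 lower with normexp background correction. Of those 3, Stra6 and Aldh1a3 were not well above background on both arrays of either group, and Aldh1a3 was likewise called lower in IL-4 macrophages with normexp. Over all genes 7660 were higher and 6832 lower, against 4947 and 7464 with median centring, 4508 and 7211 in the deposited table and 6239 and 8445 with normexp. In IL-4 against LPS macrophages, 3 of 8 were higher (Rbp4, Aldh1a2 and Rarg) and 2 lower (Aldh1a1 and Crabp2), while 52.6% of all genes were called (25.8% higher and 26.8% lower). The Aldh1a1 call there was lost in 10 of 19 alternative settings, among them without IL-4 replicate 1, IL-4 replicate 2 or LPS replicate 2 (adjusted p = 0.084, 0.13 and 0.11), and both lower calls were lost with median centring, where 7813 genes were higher and 4435 lower, against 6832 and 7116 here. In colony cells against IL-4 macrophages, 6 of 8 were higher and 1 was lower, while 71.7% of all genes were called (24.3% higher and 47.4% lower). In colony cells against LPS macrophages, 7 of 8 were higher and 1 was lower, while 76.5% of all genes were called (26.8% higher and 49.7% lower). The 3 comparisons with control share the same 2 control arrays. All-gene medians were -0.35 log2 for colony cells, -0.01 for IL-4 and 0.07 for LPS macrophages, each against control.

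**Figure D1:**
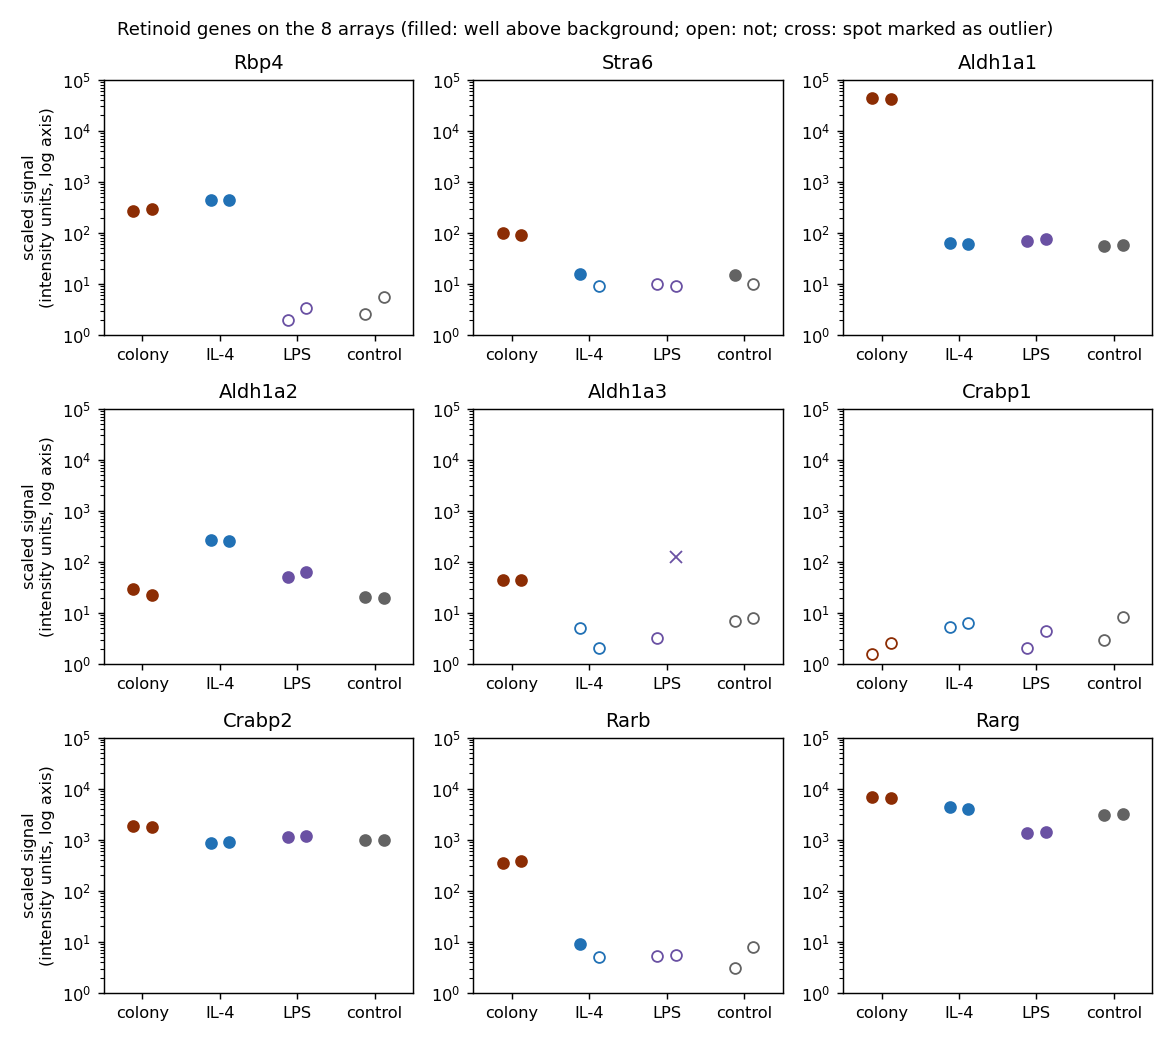
Scaled signal (intensity units, log axis) of each member on each of the 8 arrays, 1 panel a gene and 1 point an array; filled points were well above background, open points were not, and the cross is a spot that the scanner software marked as an outlier. Aldh1a1 and Rarb stand high on the colony arrays, Rbp4 on the colony and IL-4 arrays, and Aldh1a2 on the IL-4 arrays.

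Rbp4, the carrier, was well above background in 2 groups only. Its scaled signal was 275.1 and 291.5 on the colony arrays and 450.3 and 437.2 on the IL-4 arrays, against 2.02 and 3.35 on the LPS arrays and 2.55 and 5.51 on the control arrays. The colony and IL-4 arrays did not overlap with the others, on none of which the probe was well above background. The level was at least 45.46-fold higher in IL-4 than in control macrophages (adjusted p = 0.00043, limma with Benjamini-Hochberg) and at least 49.05-fold higher than in LPS macrophages (adjusted p = 5.3e-05). In colony cells it was at least 29.02-fold higher than in control macrophages (adjusted p = 5e-05) and at least 31.31-fold higher than in LPS macrophages (adjusted p = 3.1e-05). With normexp the bounds against control were lower, at 2.67 log2 for IL-4 macrophages and 2.13 log2 for colony cells. Colony cells and IL-4 macrophages, the neighbours at the top of the order, differed by -0.65 ± 0.40 log2 (SE; 95% interval -1.65 to 0.36, adjusted p = 0.2), which was not called. In a fit of only those 4 arrays the same difference was called (adjusted p = 0.0025), as it was after another background correction (-0.55 log2, adjusted p = 0.029).

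Stra6, the receptor that takes retinol from RBP4 into cells, followed a different order. It was well above background on both colony arrays, at 100.6 and 90.95, and at 15.88 and 9.14 on the IL-4 arrays, 9.99 and 9.22 on the LPS arrays and 14.91 and 10 on the control arrays. Only the higher IL-4 array and the higher control array were well above background among the 6 macrophage arrays, and the IL-4 arrays spanned the range of the other macrophage arrays. Colony cells were higher than control macrophages by 2.97 ± 0.31 log2 (SE, adjusted p = 0.00034), higher than IL-4 macrophages by 2.99 ± 0.31 log2 (adjusted p = 0.00033) and at least 9.82-fold higher than LPS macrophages (adjusted p = 0.00019), in limma with Benjamini-Hochberg adjustment. With normexp, which adds a constant and so shrinks differences of dim probes, the same 3 differences were 0.66, 0.87 and 1.06 log2, all still called. Rbp4 and Stra6 were both well above background on both arrays only in colony cells among the 4 groups.

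Of the 3 synthesis enzymes, Aldh1a1 differed by more than any other member with a measured level on all 8 arrays. Its scaled signal was 43330 and 41370 on the colony arrays, 62.59 and 60.31 on the IL-4 arrays, 71.03 and 76.44 on the LPS arrays, and 56.24 and 57.34 on the control arrays. The probe was well above background on all 8 arrays and saturated on none, so these are measured levels at both ends. Colony cells were higher than control macrophages by 9.54 ± 0.07 log2 (SE, adjusted p = 3.8e-07), than IL-4 macrophages by 9.43 log2 (adjusted p = 4.6e-07) and than LPS macrophages by 9.17 log2 (adjusted p = 2.6e-07). The macrophage groups lay within 0.38 log2 of each other. LPS macrophages were above control by 0.38 ± 0.07 log2 (adjusted p = 0.0068), while IL-4 macrophages differed from control by 0.11 ± 0.07 log2 (95% interval -0.07 to 0.29, adjusted p = 0.35). The LPS difference was not called with normexp (0.05 log2, adjusted p = 0.68), with median centring (0.19 log2, adjusted p = 0.24), in the authors' deposited value table (0.19 log2, adjusted p = 0.25) or in a fit of only the 4 arrays compared (adjusted p = 0.052).

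Aldh1a2, which is the retinoic acid enzyme of many embryonic and immune tissues in the mouse, had its highest level in IL-4 macrophages. The colony arrays gave 29.01 and 22.65, the IL-4 arrays 267.3 and 258.3, the LPS arrays 49.69 and 63.73, and the control arrays 20.96 and 19.88. No array of 1 group overlapped with another group, and the probe was well above background on all 8 arrays, though at low signal outside IL-4 macrophages. IL-4 macrophages were above control by 3.69 ± 0.16 log2 (SE, adjusted p = 0.00019) and above LPS macrophages by 2.22 ± 0.16 log2 (adjusted p = 0.00017). Colony cells were below IL-4 macrophages, at -3.36 ± 0.16 log2 (adjusted p = 1.7e-05). LPS macrophages were above control by 1.46 ± 0.16 log2 (adjusted p = 0.00086). Colony cells differed from control by 0.33 ± 0.16 log2 (95% interval -0.08 to 0.74, adjusted p = 0.12) and were below LPS macrophages, at -1.13 ± 0.16 log2 (adjusted p = 0.0013). With normexp the IL-4 difference from control was 1.81 log2 and still called, the LPS difference 0.29 log2 (adjusted p = 0.095) and not called, and the colony difference -0.33 log2 (adjusted p = 0.050).

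Aldh1a1 and Aldh1a2 thus had their highest levels in different groups, Aldh1a1 in colony cells and Aldh1a2 in IL-4 macrophages. Aldh1a3, the third enzyme, was well above background only in colony cells, at 43.81 and 43.4. It was at 5.04 and 2.01 on the IL-4 arrays and 6.94 and 8.09 on the control arrays. On LPS replicate 1 it was at 3.2. The spot of LPS replicate 2 was marked as an outlier by the scanner software and left out, so the LPS group has 1 value. Before scaling that spot read 123.5, above the 56.2 and 57.16 of the colony arrays. Colony cells were at least 4.47-fold higher than control macrophages (adjusted p = 0.0058), at least 4.67-fold higher than IL-4 macrophages (adjusted p = 0.0014) and at least 5.06-fold higher than LPS macrophages (adjusted p = 0.0027), in limma with Benjamini-Hochberg adjustment. With that spot kept, none of the 3 was called (adjusted p = 0.21, 0.085 and 0.56 in that order). They were not called in the authors' own value table either (adjusted p = 0.18, 0.061 and 0.48). The bounds were 0.26, 0.51 and 0.84 log2 with normexp, and the one against LPS was 0.40 log2 with the spot kept.

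**Figure D2:**
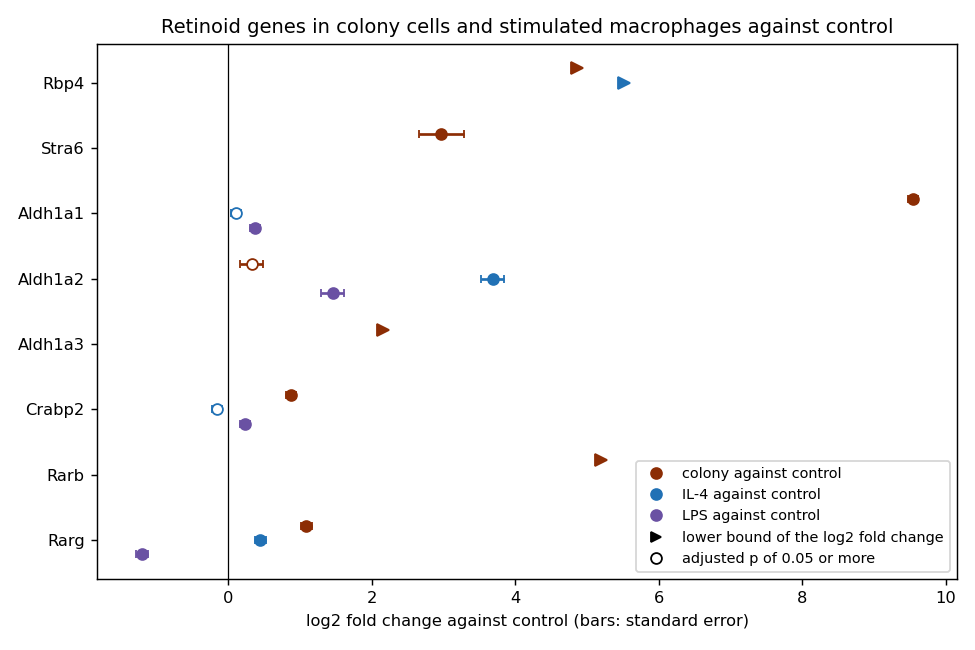
Log2 fold change of each tested member in colony cells, IL-4 macrophages and LPS macrophages, each against control macrophages, with bars for the standard error. Filled points passed the threshold, triangles are lower bounds, and a missing point means that the probe was not well above background on both arrays of either group; Aldh1a1 in colony cells lies at 9.54 and Aldh1a2 in IL-4 macrophages at 3.69.

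Of the 2 cytoplasmic binding proteins, Crabp1 ranged between 1.59 and 8.25 over the 8 arrays, never well above background, so no level or fold is given. Crabp2, which carries retinoic acid to its receptors, was well above background on every array. Its scaled signal was 1848 and 1762 on the colony arrays, 874.2 and 885.5 on the IL-4 arrays, 1104 and 1184 on the LPS arrays, and 987.9 and 966.8 on the control arrays. The 4 groups did not overlap, in the order colony, LPS, control and IL-4 from high to low. Colony cells were above control by 0.88 ± 0.07 log2 (SE, adjusted p = 0.00011), above IL-4 macrophages by 1.04 log2 (adjusted p = 6.1e-05) and above LPS macrophages by 0.66 log2 (adjusted p = 0.00035). The neighbours lower in the order were less well separated. LPS macrophages were above control by 0.23 ± 0.07 log2 (adjusted p = 0.038), a call lost in 15 of 19 alternative settings, and IL-4 macrophages differed from control by -0.15 ± 0.07 log2 (95% interval -0.33 to 0.02, adjusted p = 0.21).

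Rarg, a nuclear receptor for retinoic acid, was well above background on every array and ordered the 4 groups without overlap. The scaled signal was 6771 and 6514 on the colony arrays, 4451 and 4057 on the IL-4 arrays, 1322 and 1384 on the LPS arrays, and 3029 and 3202 on the control arrays. LPS macrophages were below control by -1.20 ± 0.08 log2 (SE, adjusted p = 0.00011), and this call held in each of 19 alternative settings, between -1.39 and -1.12 log2. Colony cells were above control by 1.09 ± 0.08 log2 (adjusted p = 8e-05), above IL-4 macrophages by 0.64 ± 0.08 log2 (adjusted p = 0.00073) and above LPS macrophages by 2.30 ± 0.08 log2 (adjusted p = 3.6e-06). IL-4 macrophages were above LPS macrophages by 1.65 ± 0.08 log2 (adjusted p = 3.3e-05). They were above control by 0.45 ± 0.08 log2 (adjusted p = 0.016), a call lost in 6 of 19 alternative settings, among them median centring (adjusted p = 0.080) and leaving out control replicate 1, IL-4 replicate 1 or IL-4 replicate 2 (adjusted p = 0.062, 0.097 and 0.054). Rarg thus lay above control in IL-4 macrophages and below it in LPS macrophages.

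Rarb, a receptor whose gene is itself a known target of retinoic acid, was bright in colony cells on the probe that represents it, A_55_P1962154. That probe read 344.1 and 375.7 on the colony arrays, 9.18 and 5.16 on the IL-4 arrays, 5.37 and 5.6 on the LPS arrays, and 3.05 and 8.03 on the control arrays. Among macrophages it was well above background on 1 IL-4 array alone. Colony cells were at least 36.84-fold higher than control macrophages (adjusted p = 0.00012), at least 39.75-fold higher than LPS macrophages (adjusted p = 0.00011) and higher than IL-4 macrophages by 5.71 ± 0.49 log2 (SE, adjusted p = 0.00016), in limma with Benjamini-Hochberg adjustment. With normexp the bounds were 2.51 log2 against control and 2.90 log2 against LPS macrophages, and the difference from IL-4 macrophages was 2.73 log2, all still called.

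The 3 Rarb probes did not agree. Probe A_55_P2084807, which the files assign to the same transcript as the first, read 66.9 and 58.65 on the colony arrays and 6.17 and 7.05 on the control arrays, at least 6.42-fold higher in colony cells (adjusted p = 0.02). Among the macrophage arrays it was well above background only on LPS replicate 2, at 15.43. Probe A_55_P2099585, assigned to another transcript record and lying at a separate position on the same chromosome, read 10.93 and 10.16 on the colony arrays, 18.63 and 14.23 on the IL-4 arrays, 16.64 and 14.66 on the LPS arrays, and 14.28 and 5.9 on the control arrays. On it colony cells differed from control by 0.20 ± 0.41 log2 (95% interval -0.82 to 1.22, adjusted p = 0.69). The difference in Rarb between colony cells and macrophages therefore holds for 2 of its 3 probes.

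**Figure D3:**
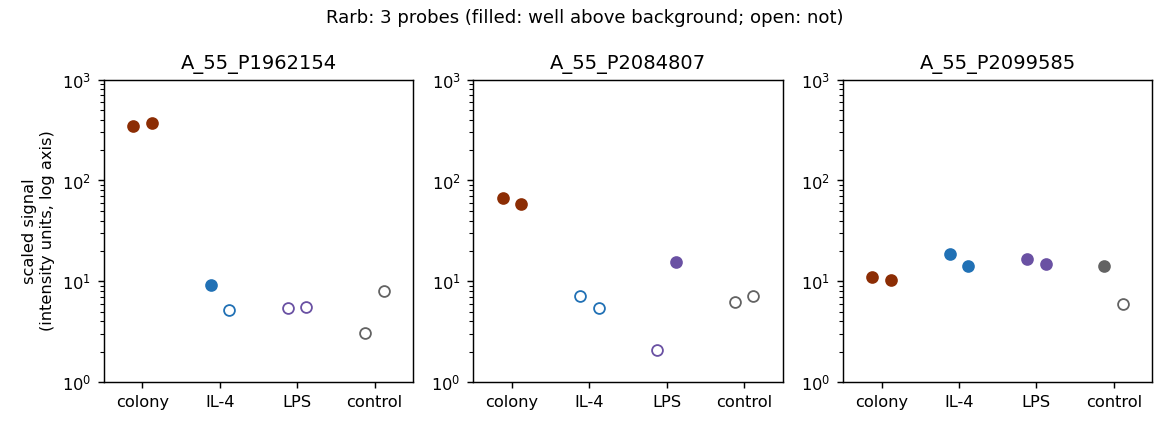
Scaled signal (intensity units, log axis) of the 3 Rarb probes on the 8 arrays, 1 panel a probe and 1 point an array; filled points were well above background and open points were not. The colony arrays stand above all macrophage arrays on the left and middle probes, and on the right probe they lie between 10.16 and 10.93, within the range of the control arrays.

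The promoter of Rarb is shown because retinoic acid receptors bind repeats of a half-site, taken here as AGGTCA or as AGTTCA, with GGGTCA and also GGTTCA allowed. A direct repeat of 2 such half-sites with 5 bases between them (DR5) lies 53 bases before the Rarb start in the RefSeq sequence (GRCm38.p6, chr14:16575477-16575576, minus strand, the 100 bases before the start, repeat in capitals).
Rarb: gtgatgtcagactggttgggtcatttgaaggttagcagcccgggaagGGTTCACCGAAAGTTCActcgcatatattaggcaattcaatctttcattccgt
Both strands were searched, and half-sites of a repeat also count as half-sites on their own. Of 32851 mouse promoter windows of 250 bases before to 50 after a start, 32 (0.0974%) hold a DR5. The 7 members found in the table have 13 windows, of which this 1 holds a DR5, and 0 hold a repeat with 2 or 1 bases between (0.268% and 0.222% of all windows). A lone half-site is in 5 of the 13, against 43.7% of all windows. In Rbp4, which was high in IL-4 macrophages, 1 window holds ttctagagaa, a match to TTC and GAA with any 4 bases between, which is the core motif of STAT6, a factor downstream of IL-4, and is held by 6.95% of all windows. That was 1 of the 13 member windows, and those of Aldh1a2 and Rarg, which were also higher in IL-4 macrophages, hold no such match. These matches describe letters in a window and not binding. Aldh1a3 and Crabp2 were not matched.

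A wider list of 40 other retinoid genes was read in the same fits, and 32 passed the filter. In colony cells against control macrophages 6 were higher and 24 lower, with a median of -0.73 log2 beside -0.35 for all genes. Of all genes, 24.7% were higher and 46.7% lower. All 5 other receptors tested (Rara, Rxra, Rxrb, Rxrg and Ppard) and all 6 coregulators were lower, by -1.93 ± 0.10 log2 for Rxra, the common partner of the retinoic acid receptors, and -0.63 ± 0.11 log2 for Rara (SE, adjusted p = 2e-05 and 0.0028, limma with Benjamini-Hochberg). Ppard, at -0.26 ± 0.09 log2 (adjusted p = 0.046), lay above the median of all genes. Lower calls were not confined to colony cells. In IL-4 macrophages 3 of these 5 receptors and 4 of the 6 coregulators were lower than control, and 0 were higher, beside 9.18% of all genes lower. The 9 lower calls of the whole list in that comparison became 1 with median centring. In LPS macrophages 3 receptors and 4 coregulators were lower, and 1 of each was higher, beside 25.8% of all genes lower and 28.9% higher. In colony cells, both breakdown enzymes tested were higher, Cyp26a1 by at least 4.21-fold (adjusted p = 2.1e-05) and Cyp26b1 by 2.74 ± 0.64 log2 (adjusted p = 0.01). Of the 14 enzymes of retinol and retinaldehyde tested, 4 were higher and 9 lower. Adh7, a retinol dehydrogenase, was at least 34.39-fold higher (adjusted p = 0.00042), and Rdh1, which oxidises retinol in the mouse, was lower by -2.72 ± 0.27 log2 (adjusted p = 0.00031). Cyp26a1 and Adh7 passed the filter through colony cells alone, and Cyp26b1 through colony cells and LPS macrophages alone. The filter therefore favoured higher calls of these genes in colony cells.

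Under IL-4 the same list gave 4 genes higher and 9 lower against control, with a median of -0.14 log2 beside -0.01 for all genes. Of all genes 19% were called. Dhrs9, an enzyme that oxidises retinol, was higher by 3.06 ± 0.08 log2 (SE, adjusted p = 3e-05), at a mean scaled signal of 999.7 in IL-4 macrophages and 120.3 in control macrophages. Its highest level was thus in the same group as that of Aldh1a2, the enzyme of the next step, but the other groups differed. In colony cells Dhrs9 was above control by 1.85 ± 0.08 log2 (adjusted p = 8.5e-06, limma), and Aldh1a2 was not called. In LPS macrophages Dhrs9 was below control, at -0.91 ± 0.08 log2 (adjusted p = 0.00026, limma), and Aldh1a2 was called higher. In IL-4 macrophages, Rdh13 (0.72 ± 0.13 log2, adjusted p = 0.017) and Stra6l, a second membrane receptor for RBP4 in the mouse (0.63 ± 0.08 log2, adjusted p = 0.0048), were higher too. Bco2, which cleaves carotenoids, was lower by -1.07 ± 0.14 log2 (adjusted p = 0.0062). The count of 13 called was 3 with median centring and 5 without control replicate 2. Leaving out IL-4 replicate 1 gave 4, IL-4 replicate 2 gave 3 and either colony replicate gave 8, so most calls of this list in IL-4 macrophages depend on the scaling and on single arrays.

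Under LPS 9 of the 32 were higher and 12 lower against control, with a median of -0.01 log2 beside 0.07 for all genes. Of all genes 54.7% were called. Rdh1 was higher by 4.06 ± 0.27 log2 (SE, adjusted p = 0.00011) and Stra6l by 1.36 ± 0.08 log2 (adjusted p = 5.9e-05). Fabp5, a fatty acid binding protein that also binds retinoic acid, was lower by -1.55 ± 0.07 log2 (adjusted p = 2.7e-05). Rdh1 thus lay below control in colony cells and above it in LPS macrophages. In the comparisons between the other groups, 10 were higher and 10 lower in IL-4 against LPS macrophages, 6 and 23 in colony cells against IL-4 macrophages, and 7 and 21 in colony cells against LPS macrophages. Of all genes, 52.6%, 71.7% and 76.5% were called in these comparisons, in the same order.

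**Figure D4:**
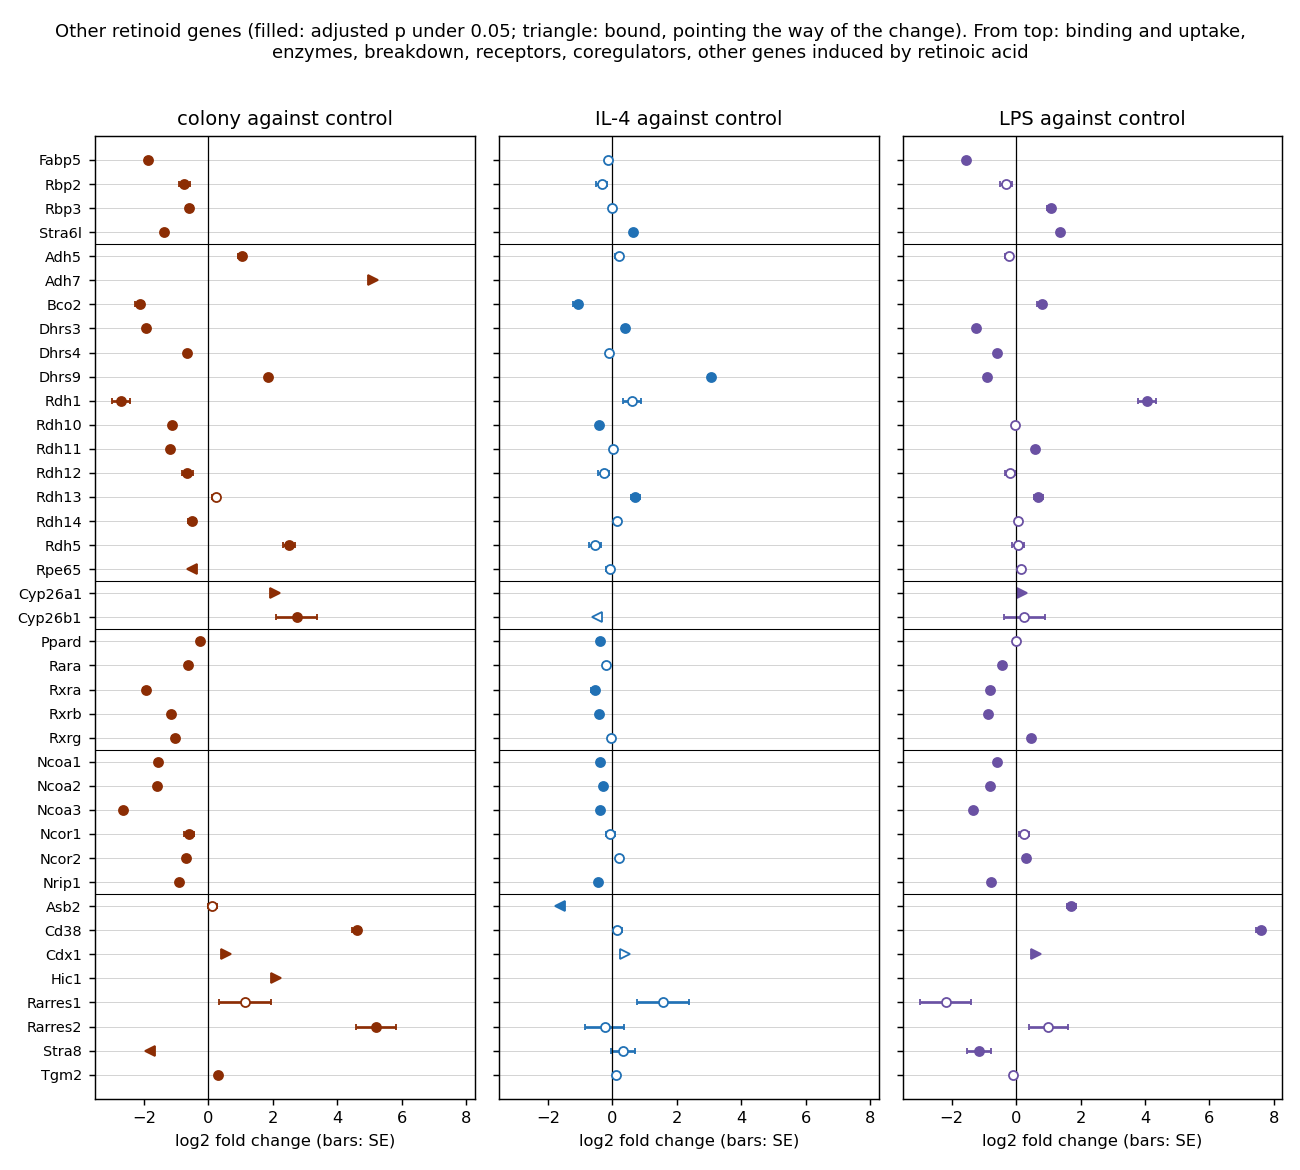
Log2 fold change of other retinoid genes tested, in colony cells, IL-4 macrophages and LPS macrophages, each against control macrophages, with bars for the standard error; filled points passed the threshold, triangles are bounds pointing the way of the change, and genes not above background in either group have no point. In colony cells the receptors and coregulators lie left of 0, while Cyp26a1 and Cyp26b1 lie right of it. Some of these receptors and coregulators were also called lower in IL-4 and LPS macrophages, and most of the lower IL-4 calls were lost with median centring.

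Genes that retinoic acid is known to induce made a second list of 16, of which 14 were tested and 6 also belong to the list above. In colony cells against control macrophages 8 were higher and 3 lower, and with normexp 6 were higher and 5 lower. The median was 1.02 log2 beside -0.35 for all genes, and 0.9 log2 with bounds in place of folds for dim probes. Of all genes 71.4% were called in that comparison (24.7% higher and 46.7% lower). Cyp26a1 and Hic1 passed the filter through colony cells alone, by the probe that represents each gene, which favoured higher calls there. For that reason the counts of this list cannot be read as an excess over all genes. Rarres2, which encodes the chemoattractant chemerin, was higher by 5.20 ± 0.61 log2 (SE, adjusted p = 0.00059) and Cd38, an enzyme that breaks down NAD, by 4.60 ± 0.14 log2 (adjusted p = 2.9e-06). Dhrs3, which turns retinaldehyde back into retinol, was lower by -1.94 ± 0.07 log2 (adjusted p = 6.5e-06). In IL-4 against control macrophages 2 were higher and 2 lower, with a median of 0.03 log2, while 19% of all genes were called. Dhrs3 was higher by 0.38 ± 0.07 log2 (adjusted p = 0.022), while Asb2 was at least 3.1-fold lower (adjusted p = 0.00028) and Nrip1 lower by -0.43 ± 0.09 log2 (adjusted p = 0.03). Those 4 calls became 2 without control replicate 2 or without IL-4 replicate 2. In LPS against control macrophages 5 were higher and 4 lower, with a median of 0.12 log2 beside 0.07 for all genes, of which 54.7% were called. That balance turned to 3 higher and 6 lower with normexp or quantile normalization, and to 4 and 5 with median centring. Cd38 was higher there by 7.59 ± 0.14 log2 (adjusted p = 2.3e-06) and Asb2 by 1.71 ± 0.14 log2 (adjusted p = 0.00021), while Dhrs3 was lower by -1.24 ± 0.07 log2 (adjusted p = 7.3e-05). Cd38 and Dhrs3 thus moved the same way in colony cells and LPS macrophages, and retinoic acid itself was not measured.

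Markers of some other cell types moved with the colony results. All 7 mesothelial markers (Msln, Upk3b, Upk1b, Wt1, Lrrn4, Gpm6a and Krt19) were well above background in colony cells, with a summed scaled signal of 243800 to 252300, against 24.84 to 29.73 in IL-4, 121.1 to 145.3 in LPS and 26.64 to 29.82 in control macrophages. All 7 fibroblast and stromal markers were too, summing to 156000 to 159300 in colony cells and between 218.1 and 1053 on the macrophage arrays. Of these, Col1a2 went the other way, at 146.9 and 141 in colony cells, against 237.3 and 305 in control macrophages. Of 5 epithelial markers 4 were well above background in colony cells, summing to 19660 to 19750 there and between 22.01 and 131 on the macrophage arrays, with Epcam not above background in colony cells. Of 8 endothelial markers 5 were, and Cdh5, Tie1 and Emcn were not above background in colony cells, where the sum of 12700 to 12790 lay within the 12000 to 14000 of the macrophage arrays. That sum is mostly Kdr, at 8374 and 7765 in colony cells and 12150 and 13770 in control macrophages, while Esam was at 4106 and 4809 in colony cells, against 7.04 and 2.07 in control macrophages, and Tek at 44.74 and 35.26, against 7.39 and 6.66. All 7 macrophage markers were well above background on all arrays, at sums of 86620 to 88030 in colony cells and between 897000 and 1261000 on the macrophage arrays, and the sum of 6 pan-leukocyte markers was 33130 to 33900 in colony cells and 263200 to 614800 on the others. The sum of 6 granulocyte markers did not set the groups apart, at 27750 to 28420 in colony cells and between 24540 and 35490 on the macrophage arrays. Single markers differed in opposite ways. Mpo was at 1712 and 1632 in colony cells, against 350.2 and 393.5 in control macrophages, and Elane at 2816 and 2562, against 11630 and 10000. The part of these cell types in the colony levels of Aldh1a1, Aldh1a3, Rarb, Rbp4, Stra6, Crabp2 and Rarg was not tested.

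Within macrophages, 4 of 5 dendritic cell markers were well above background in every group, and Xcr1 was not in any. Their sum was 43760 to 44130 in IL-4 macrophages, where Aldh1a2 and Rbp4 were high, against 1978 to 2037 in LPS and 1434 to 1540 in control macrophages. Itgax, which macrophages also express, made up nearly all of it, at 43570 and 43930 in IL-4 macrophages and 1244 and 1350 in control macrophages. Flt3 and Ccr7 lay at 111.9 and 90.23 and at 28.21 and 32 in IL-4 macrophages, against 89.64 and 91.04 and 36.58 and 41.27 in control macrophages. Zbtb46 was at 52.2 and 78.49 in IL-4 macrophages, against 57.93 and 54.89 in control macrophages. In LPS macrophages, where Aldh1a2 was also called higher, Ccr7 was at 676.7 and 731 and Zbtb46 at 628.6 and 514.3. Itgax was at 652.5 and 654.9 in LPS macrophages and Flt3 at 75.76 and 70.59, both below their control levels. The part of such cells in the IL-4 and LPS results was not tested. Of the 7 stromal markers, 6 were well above background on both LPS arrays and 4 on both control arrays, with Pdgfra on none. Dcn was at 486 and 528.2 in LPS macrophages, against 3.77 and 3.73 in control macrophages, and Pdgfrb at 246.5 and 291.3, against 20.4 and 20.48, while Col1a1 was at 27.38 and 36.26, against 58.65 and 65.97, and Col1a2 at 132 and 150.5, against 237.3 and 305. Lum was at 22.38 and 25.28 in LPS macrophages, against 2.26 and 2.38 in control macrophages, and the mesothelial marker Upk3b at 95.65 and 88.28, against 2.32 and 2.46. The 6 other mesothelial markers included 4 not above background on either LPS array, and the part of such cells in the LPS results was not tested. The array of LPS replicate 2 had 71.7% of probes well above background, against 62.0% to 66.9% on the other 7. Without it, Aldh1a1, Aldh1a2 and Rarg were still called in LPS against control macrophages and Crabp2 was not.

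The genes with the most similar profiles over the 8 arrays were ranked by the root mean square difference of log2 values, each gene centred on its mean, among genes well above background in the same groups. For Aldh1a2 they were Ppargc1b (0.29), Il31ra (0.47) and Aifm3 (0.50), of 13245 candidates. For Aldh1a1 they were Slc1a6 (0.24), Cdkn2a (0.37) and Cavin2 (0.40) of the same 13245. For Rarb they were Slc27a6 (0.37), Dusp14 (0.41) and Alpl (0.41) of 1038, and for Stra6, from the same candidates, Chrm1 (0.26) and Mest (0.28). For Rbp4 they were Map2 (1.11), Ppp1r3c (1.40) and Pmepa1 (1.70) among 67 candidates, with Pearson correlations of 0.947, 0.978 and 0.869. These differences cannot be compared between members, since the candidates and the size of the changes differed. Rarg was most like Tmem245 (0.10), Smyd2 (0.11) and Hopx (0.13), and Crabp2 like Rfc3 (0.04), Vps36 (0.05) and Pef1 (0.06). For Aldh1a3, over the 7 arrays with a value, they were Fndc3c1 (0.35), Tnfsf18 (0.44) and Dnajc22 (0.47).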

How the data were processed

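RNA of 8 samples was labelled with Cy3 and hybridised to 8 one-colour Agilent arrays on 1 slide. Per the file headers, Feature Extraction 10.7.3.1 made the deposited spot intensity values, which are background-subtracted and not scaled between arrays. The authors' deposited value table is on a log2 scale; the submitters' processing notes name Partek 6.4 and RMA without a role, and its added constant is unknown, so it served as an alternative. Spots marked as uneven or outlying were left out, log2 intensity was centred on each array's 75th percentile and spots of a probe were averaged. Of 55681 probes, 39411 were well above background on the 2 arrays of some group; the probe with the highest mean represented each of 26504 genes. Probe names were updated through RefSeq by transcript (26762), symbol (3819) or synonym (639) and otherwise kept. Groups were compared in limma 3.58.1 (R 4.3.3) with 4 group means, 4 residual degrees of freedom and a Benjamini-Hochberg threshold of 0.05. All 9 members are named. Of each other list up to 4 called genes with the largest absolute change were eligible per comparison, and the further ones named were chosen after their values were seen. The members and lists were chosen with earlier results of these data known. Some genes that these rules select are not reported here, though they stay in the counts. The number of arrays limits the precision. Alternatives were background correction, scaling, filter, probe choice, samples in the fit, variance trend, replicate block and leaving out each array, and keeping marked spots was added after seeing the data; the slide could not be a block.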

Additional observations from a re-analysis of the deposited data

How the results depend on the processing

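Of 721 values recomputed for 38 member comparisons, 673 kept their direction and their side of the threshold, 44 lost the call, 2 gained one and 2 reversed. Settings that changed the filter, the variance trend or arrays outside a comparison left a member's fold as it was. They could move a call and not a direction, so the 673 do not measure how stable the directions are. The reversed ones were not called: with normexp background correction Aldh1a1 was at -0.035 log2 in IL-4 and Aldh1a2 at -0.33 log2 in colony cells, each against control. Median centring shifted every gene by -0.18 log2 in LPS against control and by 0.21 log2 in IL-4 against LPS. It called 2 members in place of 4 in LPS against control and 3 in place of 5 in IL-4 against LPS, and the deposited value table gave the same counts, 2 and 3. Of all genes, 5049 were called in IL-4 against control, against 2667 with median centring, 2566 in the deposited value table, 3683 with no filter on dim probes and 3281 in a fit of only the 4 arrays compared. Leaving out each array in turn gave 2004 to 5270. Members called in the leave-one-out fits were 3 to 4 of 8 in LPS and 2 to 3 in IL-4 against control, and 7 in colony cells against control. The labels do not say whether same-numbered arrays share more than a number, such as an animal or a day. Their deviations from group means correlated between -0.16 and 0.05 over the 6 pairs of groups. With 2 arrays in each group this cannot exclude a shared effect that is small beside the spread between arrays. With the replicate block, Crabp2 lost its call in LPS against control (3 members left) and Aldh1a1 in IL-4 against LPS (4 left), and the block ended no other member's call. The causes were not tested. Probes near background limit Stra6, Aldh1a3, Rarb and Rbp4 to bounds or to wide errors outside the groups in which they were bright.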
